A study of Homo sapiens with 12 samples.

Results

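The GALNT family of O-glycan initiating enzymes was followed in prostate cancer cells in which 1 member, GALNT7, had been lowered or raised. The 10 members were GALNT1, GALNT2, GALNT3, GALNT4, GALNT5, GALNT6, GALNT7, GALNT10, GALNT11 and GALNT12, chosen by name as the relatives of the targeted enzyme and matched to Ensembl gene identifiers. They are 10 of the 59424 identifiers in each deposited table, and the other 10 genes of the human family were read as a separate list. RNA sequencing had been done on total RNA from CWR22Rv1 cells, a human prostate carcinoma line, carrying shControl or GALNT7 KD, and from DU145 cells, a line from a prostate carcinoma metastasis, carrying OEControl or GALNT7 OE, with 3 biological replicates in each group. KD is a knockdown with a short hairpin RNA and OE is overexpression from an open reading frame, both brought in stably with lentivirus, and the controls carry control virus. Whether each stable line was a pool or had been grown from 1 clone was not given in the sources used here, so differences between lines and effects of GALNT7 cannot be told apart beyond what the control virus covers.

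GALNT enzymes sit in the Golgi apparatus and move N-acetylgalactosamine (GalNAc) from the donor UDP-GalNAc to serine or threonine of a protein, which gives the Tn antigen, the first step of mucin type O-glycosylation. The members overlap in the proteins they accept, and some of them, GALNT7 and its close relative GALNT10 among them, prefer peptides that already carry GalNAc from another member, so they fill in what early members such as GALNT1 and GALNT2 have begun. The Tn antigen is usually extended by the galactosyltransferase C1GALT1, and in many carcinomas it is left exposed. The comparisons address which other members moved when the level of GALNT7 was changed.

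Recovered reads numbered 18364512 to 22264533 per library for CWR22Rv1 and 21628718 to 24356910 per library for DU145. Levels are normalised counts, in which 1 read was worth 0.884 to 1.07 units, and fold changes are on the scale of log2(normalised count + 1). The prostate kallikrein gene KLK3 marked the lines as labelled, with 339 to 856 normalised counts in the CWR22Rv1 libraries and 0 in every DU145 library. In CWR22Rv1 cells the second replicates of both groups stood farthest from the others, with a mean chi-square per gene of 23.1 and 23.7 against the other shControl libraries, which differed by 9.14 from each other. The corresponding values were 14.5 and 19.3 against 11.1 in the GALNT7 KD group, and knockdown calls that are lost without these libraries are given with the adjusted p without replicate 2 of both groups.

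On GRCh38, GALNT7 lies on chromosome 4 at chr4:173168753-173323967, GALNT10 on chromosome 5 at chr5:154190730-154420984, GALNT2 on chromosome 1 at chr1:230057990-230282124 and GALNT1 on chromosome 18 at chr18:35581117-35711834, all on the plus strand in GENCODE 29. Sequences ahead of a RefSeq start of GALNT7, the targeted gene, and of GALNT10 and GALNT2, the members called higher in both comparisons, are shown to let their promoters be compared. They come from RefSeq (GRCh38.p14), run 5′ to 3′ on the plus strand and stop before the first annotated exon there. The GALNT2 stretch, at chr1:230066988-230067208, lies inside the gene as GENCODE 29 spans it, past its start at chr1:230057990. The stretches of GALNT7 and GALNT10 end just before their GENCODE 29 starts. Capitals mark the GC box GGGCGG, the motif of Sp1 type factors, and the CCAAT box, each searched on both strands, so that ATTGG is a CCAAT box on the other strand.
GALNT7, chr4:173168561-173168752: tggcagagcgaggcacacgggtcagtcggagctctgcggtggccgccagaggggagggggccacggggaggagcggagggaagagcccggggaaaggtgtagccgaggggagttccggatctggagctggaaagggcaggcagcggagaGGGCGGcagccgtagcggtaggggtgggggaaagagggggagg
GALNT10, chr5:154190483-154190729: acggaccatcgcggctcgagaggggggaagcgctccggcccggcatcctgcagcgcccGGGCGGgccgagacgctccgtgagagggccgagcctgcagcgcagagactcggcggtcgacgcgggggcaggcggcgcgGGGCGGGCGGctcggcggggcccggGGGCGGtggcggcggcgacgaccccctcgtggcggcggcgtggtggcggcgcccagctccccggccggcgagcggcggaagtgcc
GALNT2, chr1:230066988-230067208: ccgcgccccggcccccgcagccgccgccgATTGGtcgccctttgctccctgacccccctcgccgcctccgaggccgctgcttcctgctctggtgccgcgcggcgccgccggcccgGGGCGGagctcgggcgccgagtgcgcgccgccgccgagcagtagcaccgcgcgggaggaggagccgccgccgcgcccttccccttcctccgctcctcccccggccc

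The stretch of GALNT7 held 1 GC box, that of GALNT10 held 4 GC boxes, of which a pair overlapped, and that of GALNT2 held 1 GC box and 1 CCAAT box. RefSeq windows from 250 bases before to 50 bases after the start were found for 7 of the 10 members, and GALNT4, GALNT5 and GALNT6 had no entry. Over such windows GC made up 69.7% of the GALNT7 promoter, 81.0% of the GALNT10 promoter and 82.0% of the GALNT2 promoter, against a median of 58.7% in 35116 promoters. A GC box stood in 45% and a CCAAT box in 34.6% of those promoters. In its whole window GALNT7 had 1 CCAAT box too, beyond the end of its printed stretch. The windows of GALNT2 and GALNT10 had 1 and 0. The letters TATAAA, found in 11.5% of promoters, were in none of the windows of these 7 members. GALNT1, called in overexpression, had several windows, with 51.7%, 82.7% and 86% GC and with 0, 1 and 5 GC boxes in that order. The values of GALNT1 thus depended on the start used. Of the members that passed no test in either comparison, GALNT3 had 70% GC and 2 GC boxes and GALNT12 had 68.7% GC and 4 GC boxes. Members with and without calls thus shared these features. GALNT11, which also passed no test, had 51.3% GC and no GC box in its window. That window, at chr7:152074787-152075086, lies inside the gene, past its annotated start at chr7:152025674. The values of GALNT11 therefore belong to an internal start, and the sequence before its annotated gene start was not read.

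GALNT7 itself followed the labels in every library. In CWR22Rv1 cells it stood at 862, 1042 and 1093 normalised counts with shControl and at 481, 501 and 400 with GALNT7 KD. The groups did not overlap, and the level was 2.17 fold lower with the hairpin, a log2 fold change of -1.11 (SE 0.129, n = 3 and 3, limma adjusted p = 0.00512). In DU145 cells it stood at 1051, 928 and 913 with OEControl and at 1988, 2221 and 2334 with GALNT7 OE.

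These groups did not overlap either, and the level was 2.26 fold higher with GALNT7 OE, a log2 fold change of 1.18 (SE 0.0863, limma adjusted p = 7.99e-05). The deposited table gives a single value for the gene, so reads of the cell's own GALNT7 transcript and of the introduced reading frame cannot be told apart. The knockdown left 461 ± 53.7 normalised counts (SD, n = 3), so GALNT7 was lowered and still present. Antisense genes overlap both ends of GALNT7, and their group means were 14.9 to 26.3 normalised counts for AC105285.1 and at most 1.24 for AC097534.1.

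**Figure D1:**
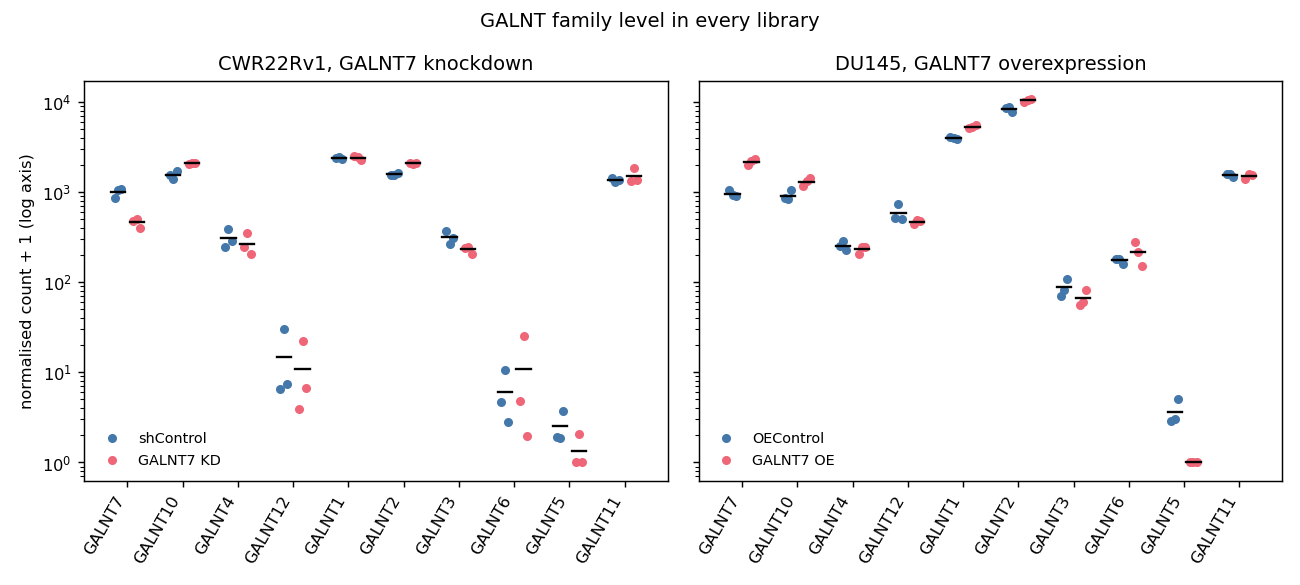
Normalised count plus 1 of each GALNT gene in each of the 12 libraries, on a log axis, with CWR22Rv1 cells on the left and DU145 cells on the right. Points are libraries, black bars are means of 3 libraries, and the members stand in the same order in both panels; GALNT7 moved down on the left and up on the right, while GALNT10 and GALNT2 stood above their controls in both panels.

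With GALNT7 knocked down in CWR22Rv1 cells, 2 other members rose, GALNT2 and GALNT10, and no other member passed the test. Of the 9 members with enough counts to be tested, 3 were called at an adjusted p of 0.05 including GALNT7 itself, against 9.06% of all 17906 genes tested in knockdown. Of the 8 tested members other than GALNT7, 2 were called, both higher, against 5.28% of all genes called higher and 3.79% called lower. EdgeR and DESeq2, run on the recovered reads, called the same 3 members, and 8.63% and 14.8% of all genes. The median log2 fold change of the 8 tested members other than GALNT7 was 0.059, against -0.0063 over all genes.

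GALNT10, the close relative of GALNT7 that also prefers peptides carrying GalNAc, stood at 1548, 1401 and 1703 normalised counts with shControl and at 2054, 2113 and 2120 with GALNT7 KD. Every knockdown library was above every control library. GALNT10 was 1.35 fold higher, with a log2 fold change of 0.44 (95% CI 0.25 to 0.63, SE 0.0797, n = 3 and 3, limma adjusted p = 0.0212). This call was lost without shControl replicate 1 and without any 1 of the 3 knockdown replicates, where the adjusted p ran from 0.0544 to 0.079 and the log2 fold change from 0.43 to 0.45.

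GALNT2, a broadly expressed early enzyme known for glycosylating lipid-handling proteins, stood at 1552, 1555 and 1614 with shControl and at 2099, 2028 and 2117 with GALNT7 KD. The groups were apart by far more than their spread of 35 and 47.2 (SD, n = 3). GALNT2 was 1.32 fold higher, with a log2 fold change of 0.40 (95% CI 0.28 to 0.53, SE 0.0526, limma adjusted p = 0.00798), and it stayed past the threshold with each library left out in turn. Without replicate 2 of both groups, an alternative chosen after seeing the data that leaves 2 libraries against 2, no member was called by limma, although 4 members had an unadjusted p under 0.05. The log2 fold change was then -1.15 for GALNT7 (adjusted p = 0.0554), 0.41 for GALNT2 (adjusted p = 0.063) and 0.36 for GALNT10 (adjusted p = 0.0978).

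GALNT1, the other main early enzyme, stood at 2366, 2461 and 2321 with shControl and at 2487, 2436 and 2247 with GALNT7 KD. The groups overlapped and the interval of the log2 fold change was narrow, from -0.14 to 0.14 (limma adjusted p = 0.979). GALNT11, known to modify Notch and lipoprotein receptors, stood at 1445, 1293 and 1379 against 1311, 1833 and 1359. Its groups overlapped, with 1 knockdown library, replicate 2, above all others, and its interval ran from -0.20 to 0.43.

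GALNT3, the enzyme that protects the phosphate hormone FGF23 from cleavage, was the only member not called whose groups in CWR22Rv1 cells did not overlap. It stood at 368, 266 and 306 with shControl and at 242, 244 and 205 with GALNT7 KD, a log2 fold change of -0.43 (95% CI -0.79 to -0.080, limma adjusted p = 0.123). With GALNT2, GALNT7 and GALNT10 it made 4 of 9 members without overlap, where 32.5% of all genes tested in knockdown had none. Of the 4, 2 were higher, against 16.9% of all genes, and 2 were lower, against 15.6%.

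GALNT4, GALNT6 and GALNT12 varied more between replicates than between groups in CWR22Rv1 cells. Each was highest in replicate 2 of both groups. GALNT12 stood at 5.60, 29.2 and 6.41 with shControl and at 2.90, 21.3 and 5.78 with GALNT7 KD, and GALNT6, the nearest relative of GALNT3, at 3.73, 9.73 and 1.83 against 3.87, 24.5 and 0.963. GALNT12 had 29 to 46 reads per group and GALNT6 had 17 to 28. With these counts and this spread between replicates a difference was not detectable. The intervals ran from -2.44 to 1.56 for GALNT12 and from -2.15 to 2.66 for GALNT6 on the log2 scale.

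GALNT4, known to modify the selectin ligand PSGL-1, stood at 243, 393 and 288 with shControl and at 248, 349 and 204 with GALNT7 KD. Its log2 fold change was -0.21 (95% CI -0.80 to 0.38, limma adjusted p = 0.638). The value is uncertain because GALNT4 (chr12:89519408-89524806) shares its exon with the read-through gene POC1B-GALNT4 (chr12:89519408-89526262, same strand), and how reads were split between them was not given. The read-through gene fell from 197 ± 13.7 to 80.7 ± 15.2 (SD, n = 3, log2 fold change -1.29, limma adjusted p = 0.00736, and 0.0719 without replicate 2 of both groups). With the counts of the pair summed, an alternative chosen after seeing the data, the log2 fold change was -0.55 (95% CI -0.92 to -0.17, limma adjusted p = 0.0795).

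GALNT4 and GALNT6 both lie on chromosome 12, where the median gene was 0.27 lower on the log2 scale in knockdown than over all genes. Relative to its chromosome GALNT4 changed sign, to 0.056, and GALNT6 stood at 0.52, neither past the threshold. The chromosomes of the other members were shifted by at most 0.056 in knockdown. GALNT2, GALNT7 and GALNT10 kept their calls relative to their chromosomes, at 0.35, -1.16 and 0.39.

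GALNT7 overexpression in DU145 cells was accompanied by higher levels of GALNT1, GALNT2 and GALNT10. With GALNT7 they made 4 of 9 tested members called, all of them higher, against 43.5% of all 18705 genes tested called in overexpression, 22.9% called higher and 20.5% called lower. EdgeR and DESeq2 called the same 4 members, and 43% and 43.1% of all genes. The share of members called was thus near that of all genes, and the count by itself says little about the family. The median log2 fold change of the 8 members other than GALNT7 was 0.12, against -0.011 over all genes.

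GALNT1 stood at 4047, 3937 and 3916 normalised counts with OEControl and at 5096, 5280 and 5522 with GALNT7 OE. Every GALNT7 OE library was above every control library. GALNT1 was 1.34 fold higher, with a log2 fold change of 0.42 (95% CI 0.31 to 0.52, SE 0.0449, n = 3 and 3, limma adjusted p = 0.00042). The interval in knockdown, from -0.14 to 0.14, lay apart from it, and the difference between the comparisons itself was not tested, since the cell lines were scaled and fitted separately. GALNT1 lies on chromosome 18, where the median gene was 0.13 higher on the log2 scale in overexpression than over all genes. Relative to its chromosome GALNT1 kept its call.

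GALNT2, the most abundant member of DU145 cells, stood at 8571, 8725 and 7678 with OEControl and at 10018, 10622 and 10739 with GALNT7 OE. The groups did not overlap. GALNT2 was 1.26 fold higher, with a log2 fold change of 0.33 (95% CI 0.19 to 0.47, SE 0.0579, limma adjusted p = 0.0037).

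GALNT10 stood at 853, 828 and 1050 with OEControl and at 1176, 1323 and 1419 with GALNT7 OE. Here too the groups did not overlap, with the third control library nearest to the overexpressing ones. GALNT10 was 1.43 fold higher, with a log2 fold change of 0.52 (95% CI 0.25 to 0.80, SE 0.115, limma adjusted p = 0.0096). All 4 calls held with each library left out in turn, and GALNT10 alone lost its call without replicate 2 of both groups (log2 fold change 0.45, adjusted p = 0.091).

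GALNT2 and GALNT10 were therefore higher in both comparisons, although GALNT7 fell in the first and rose in the second. Among 16124 genes tested in both, 1.72% were called higher in each, and of the 9 members tested in both, 2 were.

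**Figure D2:**
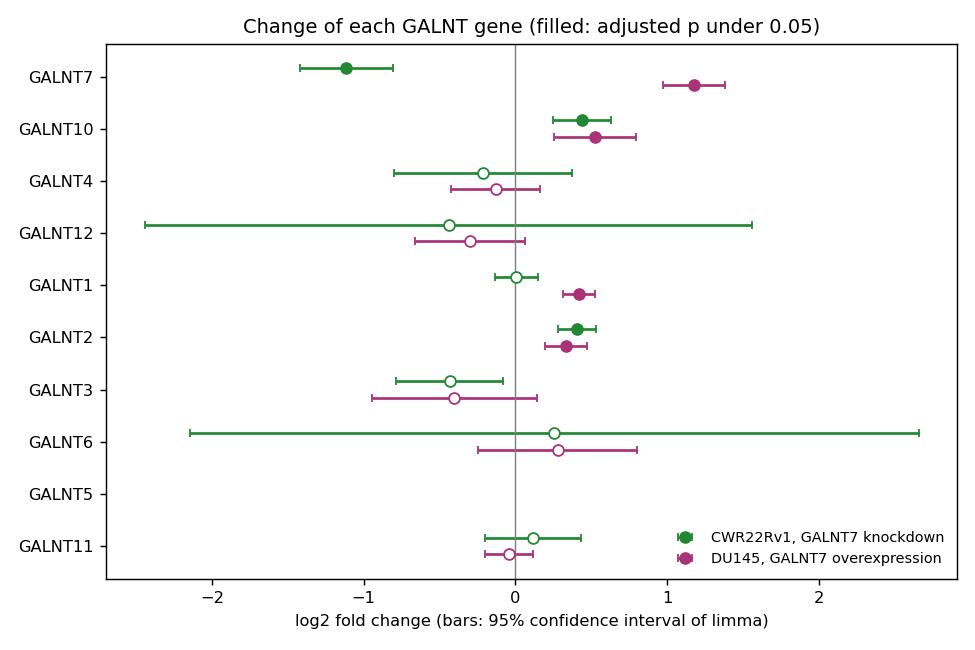
Log2 fold change of each GALNT gene after GALNT7 knockdown in CWR22Rv1 cells and after GALNT7 overexpression in DU145 cells, with 95% confidence intervals of limma; filled points passed an adjusted p of 0.05, and GALNT5 had too few counts to be tested. GALNT7 lies at -1.11 and 1.18, while GALNT10 (0.44 and 0.52) and GALNT2 (0.40 and 0.33) lie to the right of 0 in both and GALNT1 only with overexpression.

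The remaining members of DU145 cells passed no test. GALNT3 stood at 69.7, 81.8 and 108 with OEControl and at 55.1, 59.1 and 80.8 with GALNT7 OE, a log2 fold change of -0.40 (95% CI -0.95 to 0.14, limma adjusted p = 0.201). These groups overlapped, so the value had the same sign as in knockdown without passing the test in either line. GALNT6 stood at 181, 180 and 159 against 282, 216 and 152, with a log2 fold change of 0.28 (95% CI -0.25 to 0.80). GALNT6 had its lowest and its highest library in the same group.

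GALNT12, an enzyme that is altered in some colorectal cancers, stood at 512, 732 and 508 with OEControl and at 437, 487 and 477 with GALNT7 OE. All 3 overexpressing libraries were below the controls, with control replicate 2 far above the rest, and the log2 fold change was -0.30 (95% CI -0.66 to 0.061, limma adjusted p = 0.155). Together with the 4 members called, GALNT12 made 5 of 9 members without overlap, where 55.3% of all genes tested in overexpression had none. The 4 were higher, against 28.2% of all genes, and GALNT12 was lower, against 27.1%. GALNT4 and GALNT11 overlapped between groups, with log2 fold changes of -0.13 (95% CI -0.42 to 0.16) and -0.043 (95% CI -0.20 to 0.11).

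GALNT5 was hardly detected in either line. In CWR22Rv1 cells 5 reads fell on it in the 3 shControl libraries and 1 in the 3 GALNT7 KD libraries. In DU145 cells it stood at 1.91, 2.05 and 4.03 normalised counts with OEControl, 8 reads in all, and at 0 in every GALNT7 OE library, where a count of 0 allows up to 3 reads or 2.77 to 3.15 normalised counts. It was left out of the test by the minimum mean of 5 normalised counts.

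The make-up of the family was next compared within each cell line, with normalised counts divided by the length of the exons in kb. In shControl cells GALNT1 led with 465 ± 13.9 per kb (SD, n = 3) and GALNT2 followed with 203 ± 4.51. GALNT11, GALNT10 and GALNT7 came next at 165, 148 and 146 per kb, neighbours that overlapped in their ranges. GALNT3 and GALNT4 followed at 66.8 and 57.1 with overlapping ranges, and GALNT12, GALNT6 and GALNT5 lay at 4.38 or less.

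With GALNT7 KD, GALNT10 stood at 200 ± 3.43 per kb and GALNT11 at 181 ± 34.8, again with overlapping ranges, while GALNT7 dropped to 67.1 ± 7.82, where its range overlapped that of GALNT4 at 49.4 ± 13.7. The share of GALNT7 in the summed level of the 10 members went from 11.6% ± 1.25 to 5.21% ± 0.377 and that of GALNT10 from 11.8% ± 1.11 to 15.6% ± 0.904 (SD, n = 3). That of GALNT2 ran from 15.9% to 16.4% with shControl and from 19.3% to 22.4% with GALNT7 KD. These shares depend on the length used, and without division by length GALNT10 had 18.2% and 23.2%, so its share was higher with GALNT7 KD on either scale.

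DU145 cells had another make-up. GALNT2 led with 1075 ± 73.1 per kb in OEControl cells, ahead of GALNT1 with 774 ± 13.7, and GALNT12 stood at 186 ± 41.0, overlapping GALNT11 at 187 ± 8.14. GALNT7 stood at 140 (133 to 153 over the 3 libraries), then GALNT10 at 86.7, GALNT4 at 47.0, and GALNT6 and GALNT3 at 23.6 and 18.4 with overlapping ranges.

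With GALNT7 OE, GALNT7 stood at 318 ± 25.6 per kb, above GALNT11 at 181 and still below GALNT1 at 1034 and GALNT2 at 1351. Its share went from 5.53% ± 0.405 to 9.78% ± 0.374 of the family (SD, n = 3). Its place relative to GALNT12 in OEControl cells depended on the length used, since GALNT12 had 7.31% by the union of exons, 5.33% by the longest transcript and 3.46% without division by length, while GALNT7 had 5.53%, 5.60% and 5.73%. The shares of GALNT1 and GALNT2, from 30.5% to 31.9% and from 42.3% to 41.7%, differed little, while both genes and the family sum rose.

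**Figure D3:**
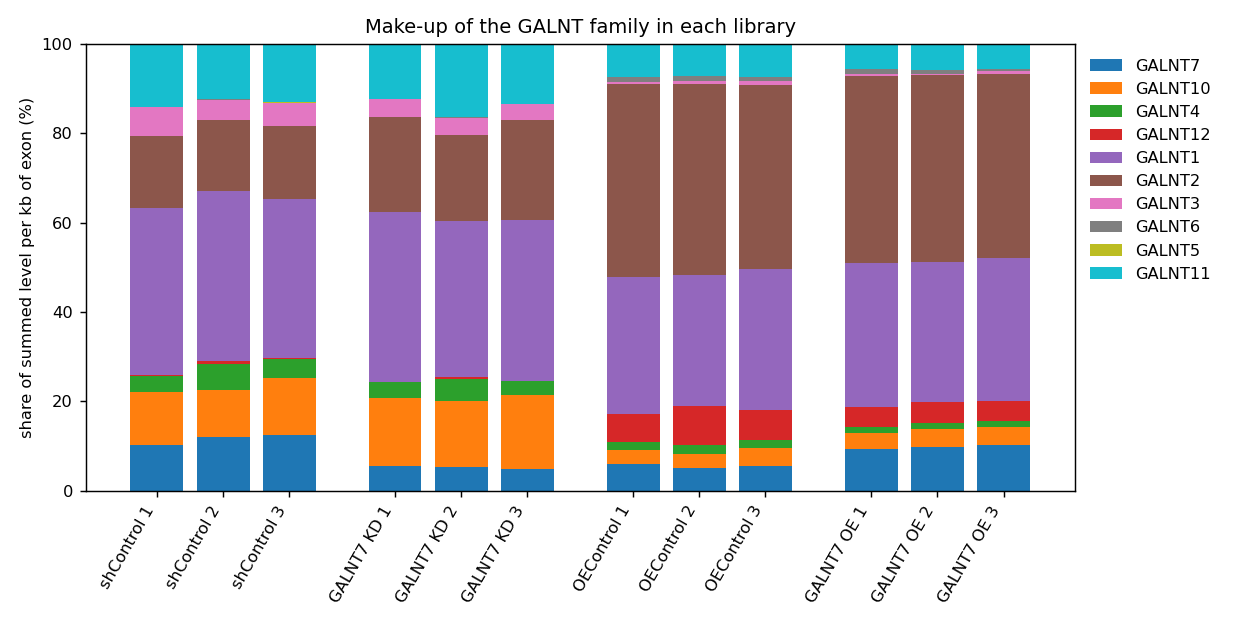
Share of each GALNT gene in the summed level of the 10 members, per kb of exon, in each of the 12 libraries (bars, 3 replicates per group, each bar adding to 100%). GALNT7, at the bottom of each bar, takes about 11.6% with shControl, 5.21% with GALNT7 KD, 5.53% with OEControl and 9.78% with GALNT7 OE, and GALNT1 and GALNT2 together make the greater part of the family in DU145 cells.

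The summed normalised count of the 10 members was 8520 ± 172 with shControl and 9046 ± 458 with GALNT7 KD (SD, n = 3), 6.17% higher, with library 3 of the knockdown below library 3 of the control. Without GALNT7 the sum was 7521 ± 107 against 8586 ± 413, and these groups did not overlap, the lowest knockdown library being at 8260 and the highest control at 7622. In DU145 cells the sum was 16815 ± 678 with OEControl and 21731 ± 949 with GALNT7 OE, and without GALNT7 it was 15852 ± 644 against 19550 ± 774, again with no overlap. No test was made of these sums.

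The other 10 genes of the family were mostly silent, with 4 of them above the minimum in CWR22Rv1 cells and 3 in DU145 cells. None of the 4 was called in knockdown by limma, edgeR or DESeq2, where limma called 9.06% of all genes. An unadjusted p under 0.05 in limma was found for 1 of the 4. This was GALNT18, at 201, 188 and 169 with shControl and 237, 204 and 288 with GALNT7 KD (log2 fold change 0.37, limma adjusted p = 0.187).

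In overexpression 1 of the 3 was higher and 1 lower, against 22.9% and 20.5% of all genes. GALNT16, a close relative of GALNT2, stood at 316, 323 and 292 with OEControl and at 40.1, 80.4 and 134 with GALNT7 OE. It fell in every library, by more than any of the 10 members in either comparison, with a log2 fold change of -2.02 (SE 0.394, limma adjusted p = 0.00592, and 0.0601 without replicate 2 of both groups). GALNT14, of the same subfamily, was 1.18 fold higher (log2 fold change 0.23, SE 0.0649, limma adjusted p = 0.0245), and lost its call with any 1 library left out other than GALNT7 OE replicate 2 (adjusted p = 0.0513 to 0.0779). The call of GALNT14 was also lost with 75th percentile scaling (0.13, adjusted p = 0.138), with quantile normalisation (0.14, adjusted p = 0.139) and relative to its chromosome (0.15, adjusted p = 0.0929).

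Of the enzymes that act on the Tn antigen once a GALNT enzyme has made it, C1GALT1 moved in knockdown. C1GALT1 stood at 127, 112 and 68.7 with shControl and at 201, 238 and 225 with GALNT7 KD. The groups did not overlap, and the gene was 2.16 fold higher with a log2 fold change of 1.15 (SE 0.237, limma adjusted p = 0.0322). It was 1 of 3 tested genes of its list, where 9.06% of all genes were called in knockdown. The call was lost with any 1 library left out other than shControl replicate 3, where the adjusted p ran from 0.0516 to 0.0891 and the log2 fold change from 1.09 to 1.32, and without replicate 2 of both groups (adjusted p = 0.146). In DU145 cells none of the 3 was called by limma, edgeR or DESeq2, where limma called 43.5% of all genes. C1GALT1 alone had an unadjusted p under 0.05 in limma, and stood at 1242 ± 41.3 against 1391 ± 40.8 (log2 fold change 0.16, adjusted p = 0.0547). Its chaperone gene C1GALT1C1, which the enzyme needs to fold, had overlapping groups in both lines, its shControl libraries lying at 388 to 402 and its knockdown libraries at 374 to 430, then its OEControl libraries at 426 to 475 and its overexpressing libraries at 432 to 459.

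The supply of the donor UDP-GalNAc was read from 9 genes. In knockdown 1 of the 9 was called, against 9.06% of all genes. This was GFPT1, the first and rate-limiting enzyme of the hexosamine pathway. It stood at 1479, 1616 and 1495 with shControl and at 2502, 2257 and 2026 with GALNT7 KD, a log2 fold change of 0.56 (SE 0.0884, limma adjusted p = 0.0139), which lost its call without shControl replicate 1 or 3 (adjusted p = 0.0616 and 0.0576) and without replicate 2 of both groups (0.0844). GALK2, a kinase that can salvage GalNAc, was the next, at 0.45 (limma adjusted p = 0.0556), and passed the test without shControl replicate 2 (0.56, adjusted p = 0.04), with a minimum mean of 20 (adjusted p = 0.0477) and in DESeq2 (adjusted p = 0.0131).

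In overexpression 5 of the 9 were called, against 43.5% of all genes, 2 higher and 3 lower. GNPNAT1 and UAP1, enzymes of later steps of the hexosamine pathway, rose 2.43 fold and 1.71 fold (log2 fold changes 1.28, SE 0.0841, and 0.77, SE 0.13, limma adjusted p = 5.08e-05 and 0.00309). Of the 3 lower genes, GFPT2 was at -0.61 and SLC35A2, a UDP-galactose carrier of the Golgi, at -0.30, both named after their values were seen. SLC35A2 lost its call without OEControl replicate 1 or 2 or GALNT7 OE replicate 3 (limma adjusted p = 0.0607 to 0.0796).

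Enzymes that start other kinds of O-glycosylation, such as O-mannose, O-fucose, O-GlcNAc and O-xylose, were not called in knockdown, with 0 of 8 past the threshold in limma, edgeR and DESeq2. Limma called 9.06% of all genes there. OGT alone had an unadjusted p under 0.05 in limma (adjusted p = 0.114). In overexpression 1 of 8 was higher and 4 were lower, against 22.9% and 20.5% of all genes. POFUT2, an O-fucosyltransferase, fell by 0.66 and POMT1, an O-mannosyltransferase, fell by 0.30 on the log2 scale (limma adjusted p = 0.002 and 0.0141), the second not without OEControl replicate 1 (adjusted p = 0.052). The others, named after their values were seen, were EOGT (0.40), OGT (-0.32) and XYLT2 (-0.45), and each of these lost its call with any 1 of 3 to 5 single libraries left out (adjusted p = 0.0503 to 0.12).

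Of 14 Golgi matrix and transport genes, 1 was called in knockdown, against 9.06% of all genes. This was the golgin GOLGA3 (log2 fold change -0.65, SE 0.0986, limma adjusted p = 0.0123). GOLGA3 lies on chromosome 12, and its call was lost relative to that chromosome (-0.38, adjusted p = 0.0568) and without shControl replicate 1 or GALNT7 KD replicate 1 (0.051 and 0.0586) or replicate 2 of both groups (0.0747). In overexpression 4 of the 14 were called, against 43.5% of all genes, GOLIM4 at 0.38 and GORASP2 at -0.29 with the lowest adjusted p (0.00293 and 0.00416), then GOSR1 at 0.28 and GORASP1 at -0.65, named after their values were seen. GOSR1 lost its call with quantile normalisation (0.17, adjusted p = 0.053). GOLIM4 had the opposite sign in knockdown, at -0.21, not past the threshold in limma (adjusted p = 0.0725) and past it in DESeq2 (adjusted p = 0.0131), which called 2 of the 14 and 14.8% of all genes.

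**Figure D4:**
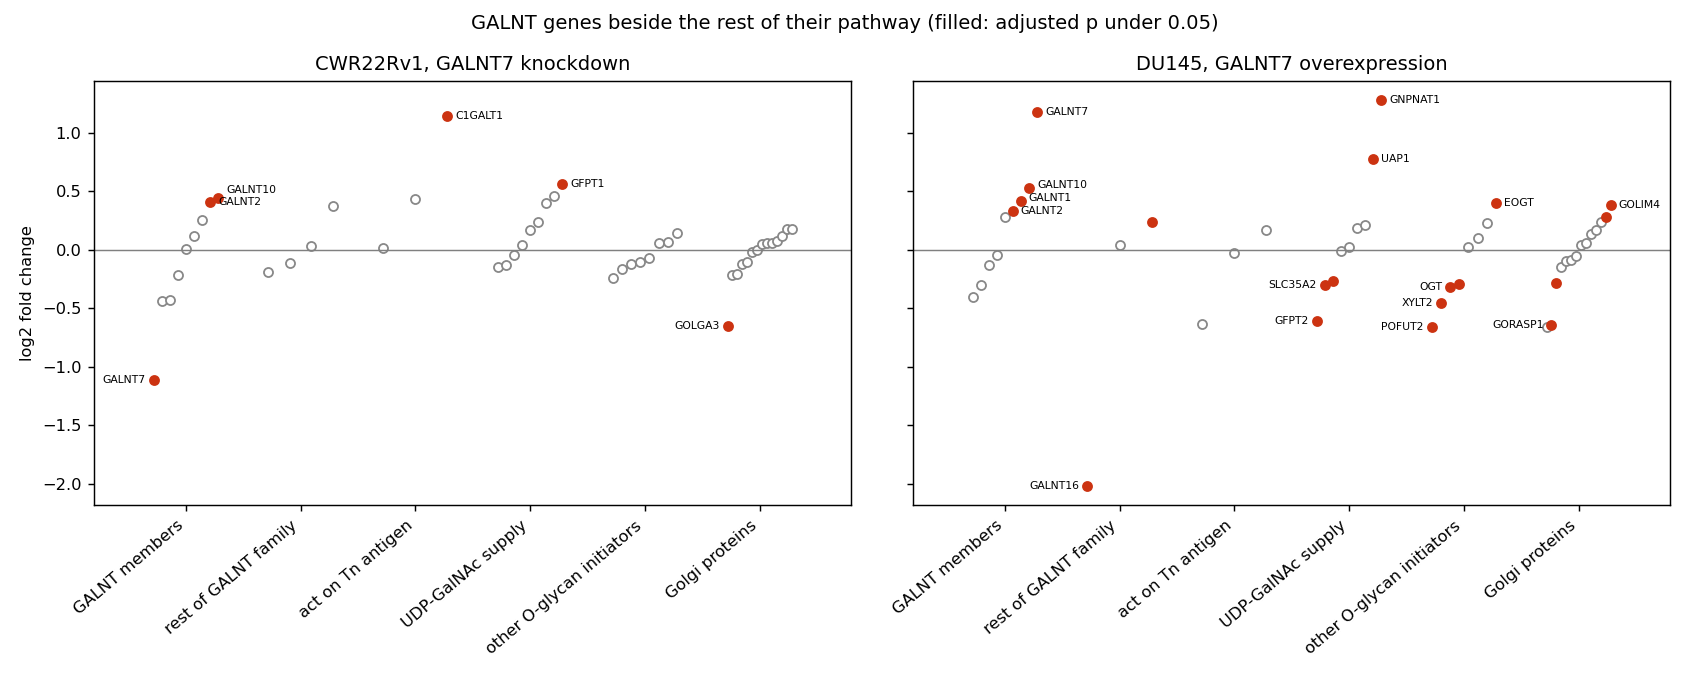
Log2 fold change of every tested gene of the GALNT family and of 4 lists of related genes, with GALNT7 knockdown in CWR22Rv1 cells on the left and GALNT7 overexpression in DU145 cells on the right; filled points passed an adjusted p of 0.05 and those past 0.3 in size carry their names. In knockdown the filled points outside the family are C1GALT1 (1.15), GFPT1 (0.56) and GOLGA3 (-0.65), and in overexpression GNPNAT1 (1.28) and GALNT16 (-2.02) lie farthest from 0.

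The genes beside the members were read to see whether a member moved with its neighbourhood. HMGB2, a chromatin protein gene 7728 bases past the end of GALNT7 on the other strand, moved in the same direction as GALNT7 both times. It fell by 0.43 on the log2 scale in knockdown (SE 0.0377, limma adjusted p = 0.0022) and rose by 1.50 in overexpression (SE 0.0571, limma adjusted p = 6.23e-06), from 742 ± 5.57 to 2096 ± 86.7 normalised counts. What the shared direction rests on was not tested.

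Around GALNT10 no neighbour passed the test in knockdown, with MFAP3, which overlaps it on the same strand, at 0.13, SAP30L at 0.20 and FAM114A2 at 0.11. In overexpression, where GALNT10 rose as well, FAM114A2 rose by 0.42 (limma adjusted p = 0.0227), a call lost without OEControl replicate 1 or 2 or GALNT7 OE replicate 2 or 3 (adjusted p = 0.0663 to 0.0697). SAP30L stood at 0.28 there (adjusted p = 0.0503, and 0.0432 with a minimum mean of 20) and MFAP3 at -0.056. Around GALNT2, URB2 and PGBD5 were not called in knockdown (0.10 and -0.23), and in overexpression URB2 rose by 0.76 while PGBD5 fell by 2.37, 1 on each side of the gene. Beside GALNT1, INO80C and C18orf21 were not called in knockdown (-0.32 and 0.14). In overexpression INO80C rose by 0.50 (limma adjusted p = 0.00184) and C18orf21 stood at 0.28 (adjusted p = 0.254, and 0.0244 without OEControl replicate 2).

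Around GALNT4, on the shifted chromosome, DUSP6 and ATP2B1 fell by 1.03 and 0.95 in knockdown (limma adjusted p = 0.000696 and 0.00677). Beside GALNT6, DAZAP2 fell by 1.13 (limma adjusted p = 5.35e-05) and SCN8A by 0.96 (adjusted p = 0.048), the second lost with any 1 library left out other than GALNT7 KD replicate 2 (adjusted p = 0.0705 to 0.154), in edgeR (0.0541) and without replicate 2 of both groups (0.0697), while SLC4A8, which overlaps GALNT6, was at -0.94 without passing the test. In overexpression DUSP6 fell again, by 1.05, and ATP2B1 rose by 0.38. Of the genes next to GALNT3, GALNT5, GALNT11 and GALNT12, none was called in knockdown, and 2 were called in overexpression. Over all genes 9.06% and 43.5% were called. PRKAG2 beside GALNT11 rose by 0.44 (limma adjusted p = 0.00203). TTC21B beside GALNT3 rose by 0.48 (adjusted p = 0.0386), a call lost without OEControl replicate 2 or 3 or GALNT7 OE replicate 2 or 3 (adjusted p = 0.108 to 0.115).

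Among the 5 genes whose pattern was most like that of GALNT7 were SCD, ANAPC7, NAP1L1 and DDX23. Their Pearson correlations with GALNT7 over the 12 libraries ran from 0.978 to 0.983, on log2 values centred within each cell line, among 11816 genes with a mean of at least 50 normalised counts in both lines. The points share their library and the GALNT7 contrast, so the values are a description. They were also not centred by chromosome. The median gene of chromosome 12 moved in the same directions as GALNT7, by -0.27 in knockdown and 0.080 in overexpression relative to all genes. SCD, a fatty acid desaturase, was at -1.0 in knockdown and 0.93 in overexpression.

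Within the family GALNT1 was the most like GALNT7, with a correlation of 0.715, in place 1423 of 11815 genes. The other members with enough counts lay between -0.23 for GALNT11 and 0.21 for GALNT4, with GALNT10 at 0.11 and GALNT2 at -0.050.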

How the data were processed

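RNA sequencing (TruSeq Stranded mRNA) was done on 12 libraries, 3 biological replicates in each of 4 groups. The authors deposited normalised counts, a signal equal to the reads on each gene divided by 1 size factor per library, in 2 tables, 1 per cell line. The submitters' processing notes name FastQC, Salmon, DESeq2, R 3.5.3 and hg38 without roles, and the annotation release and the strand setting were not given in the sources used here. Dividing each library by its smallest value above 0 gave whole reads for 100% of values, within 0.01 reads. On these reads edgeR called 1546 genes in knockdown and 8042 in overexpression, and DESeq2 2642 and 8061. Floors from reads cover counting error only, and p-values measure the spread between the biological replicates as labelled.

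Gene names, positions and exon lengths came from GENCODE 29, which holds 94.4% of the identifiers. Each cell line was fitted separately in R 4.3.3 with limma 3.58.1 (lmFit, eBayes with trend) on log2(normalised count + 1). Genes entered a fit where their mean normalised count reached 5, p-values were adjusted over all of them by the Benjamini-Hochberg method, and the threshold was 0.05. The script was tested on simulated counts. Alternatives used edgeR 4.0.16 and DESeq2 1.42.0 on the recovered reads, other pseudocounts, filters and scalings, a replicate block and each library left out. The genes named are the 10 members, the genes of each related list called in both comparisons or else the 2 with the lowest adjusted p in each, the neighbours of the members within 500 kb and the 5 genes most like GALNT7, and only some of the neighbours are described. Some genes of these lists are not reported here. The members and lists were chosen with earlier results of these data known. Levels were compared only within a cell line, since the tables were scaled separately.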

Additional observations from a re-analysis of the deposited data

How the results depend on the processing

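The calls of GALNT7, GALNT2 and GALNT10 in knockdown and of GALNT7, GALNT1, GALNT2 and GALNT10 in overexpression kept their direction under every alternative run. GALNT10 in knockdown also lost its call without a trend in the spread (adjusted p = 0.0621) and at a threshold of 0.01, and leaving out 1 library at a time gave 2 to 3 members called in knockdown and 4 in overexpression. Without replicate 2 of both groups, chosen after seeing the data, 0 members and 334 of all genes were called in knockdown, and 3 members and 5194 genes in overexpression; this alternative has fewer samples. In overexpression it ended, among others, the calls of GOSR1 (adjusted p = 0.0609), GORASP2 (0.0589), POMT1 (0.0511) and GALNT14 (0.0623). Without a filter on low values GALNT5 was called lower in overexpression, the only member whose call appeared, which gave 5 members.

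The count of all genes called in knockdown, 1623 as reported, was 996 without a trend, 2642 with DESeq2, 392 at a threshold of 0.01 and 525 to 1332 with 1 library left out, and in overexpression the threshold of 0.01 gave 5303 in place of 8132. Rescaling to the 75th percentile turned 4290 higher and 3842 lower genes in overexpression into 3380 and 4737, with the same 4 members called. The cause was not tested.

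Same-numbered replicates correlated by -0.011 to 0.075, so the numbers were not taken to pair the samples, although 1 of 3 numbers in knockdown and 3 of 3 in overexpression correlated best with their own. With the replicate block 1002 genes were called in knockdown with limma and 850 with edgeR, and 7405 in overexpression with limma, with the same 3 and 4 members. C1GALT1 (adjusted p = 0.057), SCN8A (0.105) and KRT18 (0.0539) in knockdown and GALNT14 (0.0631) and TTC21B (0.0863) in overexpression lost their calls under the block.

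Reversed signs were found for members and neighbours that passed no test. For GALNT1 in knockdown, 0.0036 as reported, the value was -0.018 with the 75th percentile, -0.042 with quantile normalisation, -0.0046 relative to its chromosome, -0.0012 with edgeR, -0.0019 with edgeR and the block, and -0.026 to 0.047 with 1 library left out. GALNT4 in knockdown was 0.056 relative to chromosome 12. With 1 library left out, values in knockdown ran from -0.76 to 1.09 for GALNT6, from -0.038 to 0.20 for GALNT11 and from -1.15 to 0.26 for GALNT12, and in overexpression from -0.079 to 0.0026 for GALNT11 and from -0.11 to 0.010 for MFAP3. FAM114A2 in knockdown ran from -0.0041 to 0.24. Without replicate 2 of both groups GALNT6 was at -0.24 and GALNT11 at -0.081 in knockdown.

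Shares were also taken without division by length and with the longest transcript in place of the union of exons, with GALNT10 and GALNT12 given beside their shares. Over all 20 family genes, chosen after seeing the data, the share of GALNT7 was 4.60% with OEControl and 8.38% with GALNT7 OE. GALNT5, GALNT6 and GALNT12 had up to 46 reads per group in CWR22Rv1 cells, with 3 libraries a group. GALNT6 and GALNT12 also varied widely between replicates. Changes of these 3 members were not detectable with such counts and spread.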

Other observations

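The other genes of the family were also read in each cell line, with levels taken within each table and no test between them. GALNT8 stood at 122 to 179 normalised counts in CWR22Rv1 cells and at 0 to 1.05 in DU145 cells. GALNT14 stood at 0 to 0.933 in CWR22Rv1 cells and at 1089 to 1398 in DU145 cells. GALNT13 and GALNT17 were at 0 in every DU145 library.

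Among the genes read as markers of CWR22Rv1 cells, KLK3, the gene of prostate-specific antigen, was at 392 ± 46.3 with shControl and 808 ± 45.0 with GALNT7 KD (SD, n = 3, log2 fold change 1.05, limma adjusted p = 0.00368). KLK2 rose by 0.47 on the log2 scale (limma adjusted p = 0.0208), and lost its call without any 1 shControl library or GALNT7 KD replicate 1 (adjusted p = 0.063 to 0.0707) or without replicate 2 of both groups (0.0816). Of 3 epithelial genes, EPCAM and KRT18 fell with GALNT7 KD, by 0.71 and 0.35 (limma adjusted p = 0.0127 and 0.0238), and EPCAM rose by 0.62 with GALNT7 OE (limma adjusted p = 0.00156). In knockdown EPCAM lost its call without shControl replicate 1 or 2 (adjusted p = 0.0553 and 0.0501), and KRT18 without any 1 shControl library or GALNT7 KD replicate 1 (0.0702 to 0.09) and relative to chromosome 12, where it lies (-0.079, adjusted p = 0.556). Without replicate 2 of both groups neither was called (0.0973 and 0.104).

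Markers of other cell types were near 0 in nearly all libraries. PTPRC stood at 0 to 2.10 in all 12, and PECAM1 at 0 to 6.47 in all but the third GALNT7 OE library, where it stood at 49.3. COL3A1 stood at 22.1 to 24.7 with shControl and at 4.27 to 13.5 with GALNT7 KD, without passing the test (log2 fold change -1.40, limma adjusted p = 0.087), and its part in the results of the family was not tested.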
